A study of Bos taurus with 11 samples.

Results

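The messages described here are those read from the cattle mitochondrial genome, as far as the array names them: the complex I subunits ND1, ND2, ND4, ND4L and ND5, cytochrome b (CYTB) of complex III, the complex IV subunits COX2 and COX3, and the ATP synthase subunits ATP6 and ATP8. A probe was a member if the array's gene name was 1 of these 10 and its coordinates lay on the mitochondrial chromosome. This gave 23 of 43653 probes: 5 for CYTB, 3 each for ND1, COX2, ATP6 and COX3, 2 for ND4, and 1 each for ND2, ND4L, ND5 and ATP8. The genes were selected on their signal and breed differences in these same arrays, so their levels and breed differences are given as a description, with no test.

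The samples were peripheral blood mononuclear cells, the lymphocytes, monocytes and related cells left when granulocytes and red cells are removed from blood. They came from female cattle of 2 breeds, 5 samples from the high-altitude Ladakhi breed and 6 from the low-altitude Sahiwal breed, with no treatment named. Total RNA was digested with DNase on the column, amplified with a T7 promoter primer, labelled with Cy3 and hybridised to a 1-colour Agilent array with 60-base probes. Altitude, breed, scanner, extraction software version and slide all changed together: 4 Ladakhi arrays lay on 1 slide and 1 on another, with 2 and 4 Sahiwal arrays on 2 further slides, so breed and batch cannot be told apart.

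Mitochondrial DNA is a small circle transcribed from both strands into long precursors. These are cut, mostly at the transfer RNAs between the genes, into ribosomal RNAs and messages without introns, and most of the messages receive a short poly(A) tail. Each message encodes a core subunit of a complex that also needs nuclear-encoded subunits, while complex II is wholly nuclear. Complexes I, III and IV pass electrons to oxygen and pump protons, and ATP synthase uses the proton gradient to make ATP. ATP8 with ATP6, and ND4L with ND4, are each translated from a shared message.

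The probes are numbered within each gene from the 5′ side of the transcript, so ND1-1 is the ND1 probe farthest upstream. Coordinates are those of the array files, on the build HGSC Btau_3.1. All 23 member probes were listed from low to high coordinate. The sequences of 5 pairs of overlapping probes are shown first, because 2 probes sharing part of a message can be compared within each array. Capitals mark the part that the 2 probes of a pair share.
ND1-2: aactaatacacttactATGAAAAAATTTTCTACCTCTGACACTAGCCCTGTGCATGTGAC
ND1-3: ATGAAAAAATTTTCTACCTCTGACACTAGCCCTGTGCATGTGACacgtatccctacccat
COX2-2: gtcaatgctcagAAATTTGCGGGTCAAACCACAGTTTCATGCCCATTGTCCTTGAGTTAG
COX2-3: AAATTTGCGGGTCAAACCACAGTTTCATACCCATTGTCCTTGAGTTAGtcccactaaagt
ATP6-1: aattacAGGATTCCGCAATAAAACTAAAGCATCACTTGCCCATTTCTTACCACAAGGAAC
ATP6-2: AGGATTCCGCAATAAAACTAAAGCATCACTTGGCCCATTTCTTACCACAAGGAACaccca
COX3-1: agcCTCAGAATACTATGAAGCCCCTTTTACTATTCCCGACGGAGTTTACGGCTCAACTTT
COX3-2: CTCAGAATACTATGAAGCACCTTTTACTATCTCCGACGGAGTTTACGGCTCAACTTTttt
CYTB-4: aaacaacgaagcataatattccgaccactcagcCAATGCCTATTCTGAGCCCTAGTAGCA
CYTB-5: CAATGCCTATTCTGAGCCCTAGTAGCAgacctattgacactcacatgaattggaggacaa
The ND1 pair (chrM:3951-4010 and chrM:3967-4026) shared 44 bases and the CYTB pair (chrM:15444-15503 and chrM:15477-15536) shared 27, with no difference in either. In the COX2 pair (chrM:7954-8013 and chrM:7966-8025) 1 base differed in 48, G41A, counted from 1 at the 5′ end of the upstream probe. The COX3 pair (chrM:9500-9559 and chrM:9503-9562) differed at 3 of 57 bases, C22A, T34C and C35T. In the ATP6 pair (chrM:8628-8687 and chrM:8634-8692) the downstream probe held 1 base more than the upstream probe, at position 33 from its own 5′ end.

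A second set of sequences belongs to the probes with the largest breed differences and, for ATP6, to the probe that went the other way.
ND1-1: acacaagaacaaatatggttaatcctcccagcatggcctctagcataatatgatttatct
CYTB-1: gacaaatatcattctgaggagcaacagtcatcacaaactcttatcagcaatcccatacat
CYTB-2: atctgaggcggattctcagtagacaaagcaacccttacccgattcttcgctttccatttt
ND4L-1: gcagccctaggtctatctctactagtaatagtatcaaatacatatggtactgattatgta
ATP6-3: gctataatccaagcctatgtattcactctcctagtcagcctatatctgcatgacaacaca
They lay at chrM:3602-3662 (ND1-1), chrM:14920-14980 (CYTB-1), chrM:15003-15062 (CYTB-2), chrM:10449-10508 (ND4L-1) and chrM:8908-8967 (ATP6-3).

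Levels are scaled log2 signals: log2 of the processed signal minus the array's own 75th percentile, so 0 is that percentile and 1 unit is a 2-fold change. A probe was measured in a breed if the scanner software marked it well above background on at least 4 of its arrays. Ladakhi arrays had 4243 to 6608 of 43803 spots above background and none saturated. On Sahiwal arrays 17517 to 20574 were above background and 71 to 228 were saturated, and a saturated spot gives only a lower limit. Pairs of Ladakhi arrays correlated at 0.803 to 0.883 and pairs of Sahiwal arrays at 0.907 to 0.957 over the probes seen on every array.

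In both breeds 21 of the 23 probes were measured, 18 of them with no saturated spot. The Ladakhi mean was read above the Sahiwal mean at 18 of the 21 and below it at 3, with a median difference of 1.41 against -0.03 over all 4034 measured probes. For the 18 unsaturated probes the median was 1.66, against -0.02 over 3793 such probes. Over all 17865 tested probes, limma called 42.1%, 24.2% with the Ladakhi level higher and 17.9% with it lower. At a Benjamini-Hochberg adjusted p of 0.05, 15 of the 21 were past the threshold with the Ladakhi level higher, where 17.9% of all measured probes were, and 1 with it lower, where 15.1% were. At 11 of the 21 the 5 Ladakhi values all lay above the 6 Sahiwal values, as at 11.8% of all measured probes, and at none did they all lie below, as at 9.77%. These counts describe how the genes were picked, and nothing is read from them. In bulk RNA, fewer cells of a type and less RNA per cell cannot be told apart.

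**Figure D1:**
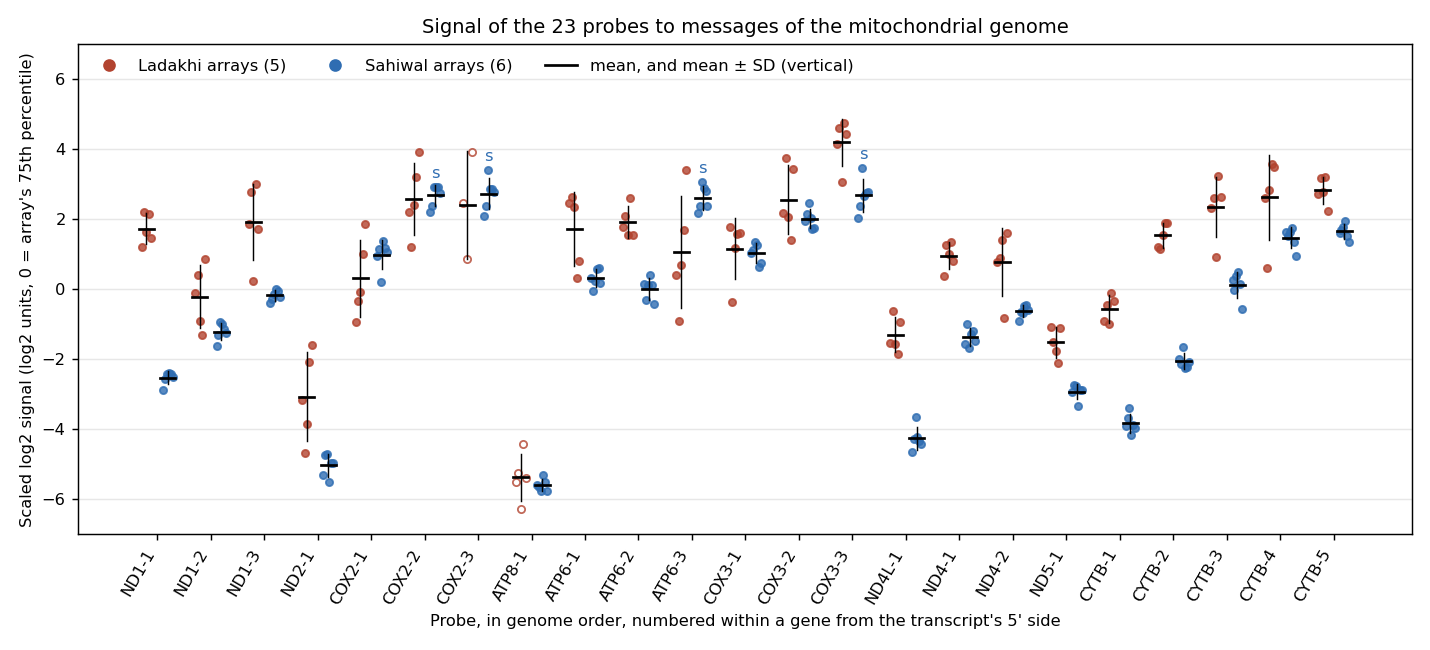
Scaled log2 signal (vertical axis, log2 units) of the 23 probes in genome order, with 1 point per array, Ladakhi in red and Sahiwal in blue, the mean as a bar and mean ± SD as a vertical line. Open points mark a breed with fewer than 4 usable arrays above background, and "s" marks probes saturated on some or all Sahiwal arrays. Red points lie above blue ones with no overlap at 11 probes, and red points scatter more than blue ones at most probes.

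Among the complex I subunits, which form the proton-pumping membrane arm of the enzyme that takes electrons from NADH, the ND1-1 probe had the largest difference of the 21. Its Ladakhi levels were 1.20, 2.22, 1.62, 2.16 and 1.46, and its Sahiwal levels ran from -2.88 through a median of -2.47 to -2.38. All Ladakhi arrays were high and all Sahiwal arrays low, with a gap of 3.59 log2 units between the nearest 2. The means were 1.73 ± 0.44 (SD, n = 5) and -2.53 ± 0.18 (SD, n = 6), a difference of 4.26 ± 0.27 (SE), or 19.2-fold.

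The other ND1 probes showed smaller differences. ND1-3 stood at 1.86, 2.77, 0.23, 3.00 and 1.72 in the Ladakhi arrays and from -0.40 through -0.18 to 0.00 in the Sahiwal arrays, a difference of 2.10 ± 0.41 (SE) with no overlap. At ND1-2 the Ladakhi values were -0.11, 0.40, -0.91, -1.32 and 0.87, and the Sahiwal values went from -1.63 through -1.19 to -0.93. There Ladakhi array 4 fell inside the Sahiwal range and array 3 just above it, and the difference was 1.0 ± 0.37 (SE). Its place past the threshold was lost in 11 of 24 alternative analyses, among them the one without each single Sahiwal array and those without Ladakhi arrays 1, 2 or 5.

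ND2, another core membrane subunit, was dim in both breeds. The Ladakhi levels were -3.17, -4.68, -3.84, -2.08 and -1.58, with array 2 not above background, and the Sahiwal levels were -5.51, -4.96 and -4.69 at the lowest, median and highest. The groups did not overlap, but by a margin of 0.018 log2 units set by the array not above background, and the difference was 1.96 ± 0.47 (SE). The dimmest spots that counted as above background lay at -3.67 on average over the Ladakhi arrays, from -4.34 to -2.94 by array, above the Sahiwal mean of -5.03. A Ladakhi level as low as the Sahiwal one would therefore not have been measured here.

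ND4L, the small subunit translated with ND4, was measured on every array. Ladakhi levels were -1.53, -0.61, -1.57, -1.84 and -0.93 and Sahiwal levels ranged from -4.66 through -4.31 to -3.66. Every Ladakhi array was at least 1.82 log2 units above every Sahiwal array, and the difference was 2.97 ± 0.30 (SE), or 7.81-fold. Its Sahiwal mean, -4.26, was also below that average Ladakhi detection level.

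ND4, the subunit encoded next to ND4L, had its 2 probes 109 bases apart. ND4-1 (chrM:11219-11278) had Ladakhi levels of 0.37, 1.26, 1.0, 1.34 and 0.80 and Sahiwal levels from -1.67 through -1.38 to -0.98, a difference of 2.32 ± 0.27 (SE) with no overlap. ND4-2 (chrM:11328-11387) had Ladakhi levels of 0.78, 0.88, 1.42, -0.83 and 1.61 and Sahiwal levels from -0.92 through -0.62 to -0.44, a difference of 1.40 ± 0.38 (SE). Here 4 Ladakhi arrays were high and array 4, which was the highest of the 5 at ND4-1, lay within the Sahiwal range.

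ND5, a large proton-channel subunit, showed -1.08, -1.52, -1.75, -2.12 and -1.10 in the Ladakhi arrays and -3.35, -2.88 and -2.75 at the lowest, median and highest Sahiwal array. The groups did not overlap and differed by 1.41 ± 0.27 (SE), or 2.66-fold, at chrM:13833-13892.

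Cytochrome b is the only subunit of complex III encoded in the mitochondrion and carries its b-type haem groups and quinone sites. Its 5 probes covered 617 bases, and none was saturated. CYTB-2 stood at 1.20, 1.15, 1.56, 1.88 and 1.89 in the Ladakhi arrays and from -2.25 through -2.11 to -1.64 in the Sahiwal arrays. The breeds were 2.79 log2 units apart at their nearest arrays, and the difference was 3.59 ± 0.26 (SE).

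CYTB-1, just upstream, had Ladakhi levels of -0.92, -0.45, -1.01, -0.11 and -0.34 against Sahiwal levels from -4.16 through -3.90 to -3.40, a difference of 3.27 ± 0.27 (SE). Its Sahiwal mean, -3.83, was also below the average Ladakhi detection level. CYTB-3 (chrM:15358-15417) had 2.31, 2.59, 0.92, 3.23 and 2.64 against -0.56, 0.21 and 0.49, a difference of 2.22 ± 0.38 (SE). Both probes kept the breeds apart on every array. At the last probe, CYTB-5, the Ladakhi levels were 2.72, 3.18, 2.76, 3.21 and 2.25 and the Sahiwal levels 1.35, 1.65 and 1.95, a difference of 1.17 ± 0.26 (SE) without overlap.

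CYTB-4, which shares its last 27 bases with CYTB-5, gave 2.61, 0.59, 2.84, 3.56 and 3.48 against 0.95, 1.58 and 1.74. Its difference of 1.15 ± 0.45 (SE) was about that of CYTB-5, but Ladakhi array 2 lay below all Sahiwal arrays, and the probe was not past the threshold.

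Complex IV, cytochrome c oxidase, hands the electrons to oxygen. COX2, which holds the copper centre that receives them from cytochrome c, did not show the pattern of the complex I and III messages. At COX2-1 (chrM:7740-7799) the Ladakhi levels were -0.92, -0.34, -0.07, 1.0 and 1.85 and the Sahiwal levels 0.21, 1.1 and 1.38. The groups overlapped, and the difference of -0.68 ± 0.44 (SE) was not past the threshold.

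The other COX2 probes were saturated on 5 of the 6 Sahiwal arrays, so their Sahiwal means are lower limits. COX2-2 had 2.20, 1.21, 2.39, 3.20 and 3.91 in the Ladakhi arrays and 2.21, 2.82 and 2.92 in the Sahiwal arrays, a difference of at most -0.10. COX2-3 kept 3 Ladakhi values, 2.45, 0.85 and 3.91, because the software marked the spots on arrays 2 and 4 as outliers, and it was not counted as measured. With the marks ignored, those spots read 0.46 and 0.97 and the difference was -1.0.

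COX3, a core subunit without metal centres, overlapped between the breeds at every probe. COX3-1 had Ladakhi levels of 1.78, -0.37, 1.18, 1.59 and 1.61 and Sahiwal levels of 0.64, 1.08 and 1.35, a difference of 0.13 ± 0.37 (SE). COX3-2, which starts 3 bases later, had 2.16, 3.73, 2.06, 1.41 and 3.42 against 1.73, 1.99 and 2.45, a difference of 0.55 ± 0.39 (SE). Neither was past the threshold, and Ladakhi array 2 was the lowest of its breed at the first and the highest at the second.

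COX3-3 (chrM:9671-9730) was saturated on all 6 Sahiwal arrays, at 2.03, 2.70 and 3.47, and read 4.14, 4.60, 3.07, 4.74 and 4.42 on the Ladakhi arrays. The difference of 1.52 is thus an upper limit, and its direction is not fixed by these readings although the probe was past the threshold. Quantile normalization brought it to 0.31.

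ATP6, the subunit of ATP synthase that forms the proton path beside the rotor, differed in both directions. ATP6-2 had Ladakhi levels of 1.77, 2.10, 1.54, 2.61 and 1.56 and Sahiwal levels of -0.41, 0.11 and 0.39, a difference of 1.91 ± 0.28 (SE) without overlap. ATP6-1 had 2.47, 2.64, 2.35, 0.33 and 0.81 against -0.05, 0.27 and 0.61, a difference of 1.41 ± 0.41 (SE). At ATP6-1 Ladakhi arrays 1 to 3 were well above the Sahiwal range, while array 4, the highest of its breed at ATP6-2, lay within it.

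ATP6-3, which starts 280 bases after ATP6-1, read 0.41, -0.91, 0.68, 1.70 and 3.40 in the Ladakhi arrays and 2.17, 2.59 and 3.06 in the Sahiwal arrays, 2 of them saturated. Here 4 Ladakhi arrays were below every Sahiwal array, and array 5 read above them all, a rank that is not fixed because saturated readings are lower limits. The difference was -1.56 ± 0.57 (SE), and saturation makes it an upper limit. Without Ladakhi array 5 it was -2.14, and the place past the threshold was lost under cyclic loess and when any of Ladakhi arrays 1, 2 and 3 or Sahiwal arrays 2 to 6 was left out.

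ATP8, a small subunit of the stator, was above background on all 6 Sahiwal arrays, at -5.78, -5.63 and -5.32, and on no Ladakhi array, at chrM:8267-8326. No fold is given, since the Ladakhi readings of -5.52, -5.26, -6.27, -4.41 and -5.40 only bound the level.

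Probes to 1 message did not give 1 breed difference. For CYTB, ND1, ND4 and ATP6 the difference was smaller at the last probe than at the first, by 2.09, 2.16, 0.92 and 2.97 log2 units. The fall was not steady: CYTB-2 exceeded CYTB-1, ATP6-2 exceeded ATP6-1, and ND1-3 exceeded ND1-2. In each of these genes the last probe was also brighter than the first on Sahiwal arrays. The Sahiwal means were -3.83 and 1.65 for CYTB, -2.53 and -0.18 for ND1, -1.36 and -0.63 for ND4, and 0.31 and 2.61 for ATP6. The Ladakhi means were -0.57 and 2.82 for CYTB, 1.73 and 1.91 for ND1, 0.96 and 0.77 for ND4, and 1.72 and 1.05 for ATP6. On Ladakhi arrays the last probe was thus brighter for CYTB, slightly so for ND1, and dimmer for ND4 and ATP6. Position and Sahiwal brightness changed together, and their parts were not tested. The Sahiwal mean is also a term of the breed difference. For CYTB the first probe minus the last was -3.77 to -2.59 on Ladakhi arrays and -6.10 to -5.19 on Sahiwal arrays, and for ND1 it was -0.84 to 1.39 and -2.48 to -2.27. In both genes the breeds did not overlap. For ND4 and ATP6 they did, and the last ATP6 probe was saturated on 2 arrays. For ATP6 the 2.97 is therefore a lower limit. For COX2 and COX3 the values read were -0.59 and -1.38, also lower limits because the last probes were saturated on 5 and 6 Sahiwal arrays, so the direction is not fixed there.

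Most nuclear genes showed the same direction along their transcripts. In 128 nuclear genes with at least 2 unsaturated probes on every array, 60 to 2000 bases apart on 1 strand, the difference at the first probe exceeded that at the last in 76.6%. The median excess was 0.52 log2 units, and the middle 50% of genes lay between 0.03 and 1.07. Ladakhi and Sahiwal arrays did not overlap, with Ladakhi above, in 25.8% of these genes. Of the 7 mitochondrial genes with COX1 included, 5 had the larger difference at the first probe and 2 were not fixed. Their median as read was 0.92, a lower limit for the genes with a saturated last probe, and ND1, CYTB and ATP6 lay above the upper quartile of the nuclear genes. The mitochondrial and nuclear genes were not tested against each other, and the fall is not called particular to mitochondrial messages.

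**Figure D2:**
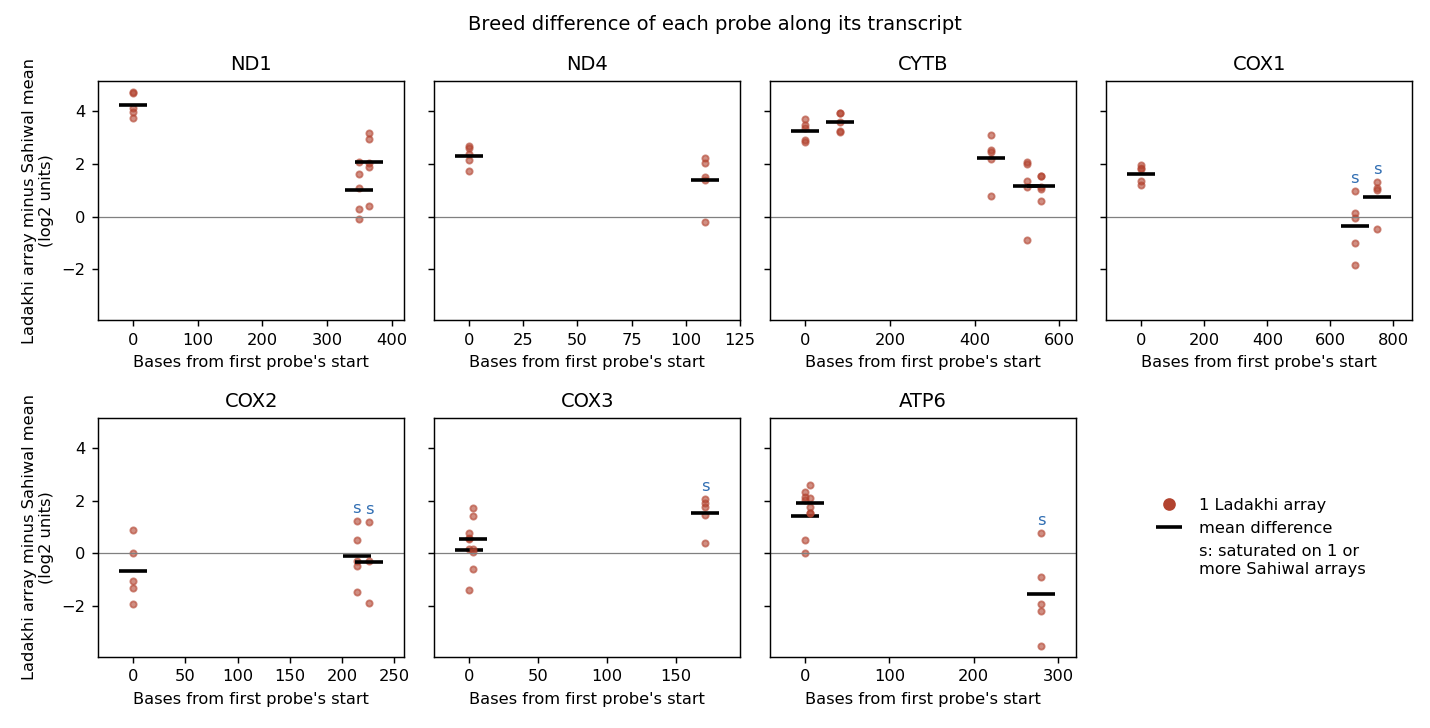
Ladakhi array minus Sahiwal mean (vertical axis, log2 units) against bases from the start of the first probe (horizontal axis) for the 7 mitochondrial genes with 2 or more probes, COX1 included. Each red point is 1 Ladakhi array, each black bar the mean, and "s" marks probes saturated on some or all Sahiwal arrays. The difference is smaller at the last probe than at the first in ND1, ND4, CYTB, COX1 and ATP6, and saturation of the last probe keeps the direction unfixed in COX2 and COX3.

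The spread over arrays was larger in the Ladakhi than in the Sahiwal arrays at all 18 unsaturated measured probes. The SD ran from 0.356 to 1.26 there, with a median of 0.871, and from 0.152 to 0.406 in the Sahiwal arrays, with a median of 0.261. Over 2387 unsaturated probes seen on every array the median SDs were 0.416 and 0.369, and the Ladakhi SD was the larger at 55.8%. Of the 17 such member probes seen on every array, 13 of 85 Ladakhi values (15.3%) lay over 1 log2 unit from their breed mean, against 6.10% for the 2387 probes. None of the 102 Sahiwal values did, against 3.46%. Repeated spots also scattered more within Ladakhi arrays: over probes with 4 usable spots on an array, the median SD of the 4 was 0.336 to 1.12 by Ladakhi array, from 2 to 4 probes each, and 0.104 to 0.316 by Sahiwal array, from 20 to 31 probes each. The spread over arrays thus holds spot-to-spot scatter as well as any difference between animals, and their parts were not tested.

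**Figure D3:**
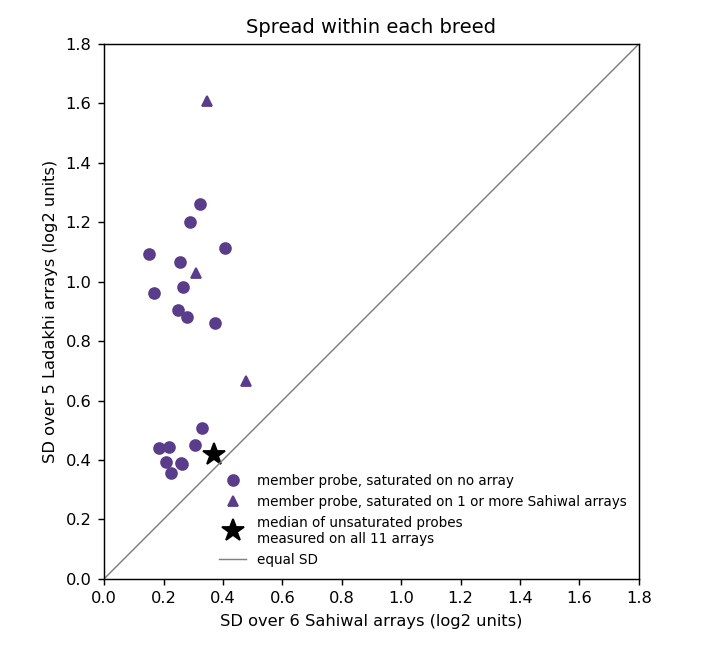
SD over the 5 Ladakhi arrays (vertical axis) against SD over the 6 Sahiwal arrays (horizontal axis), both in log2 units, for the 21 measured member probes. The star is the median of 2387 unsaturated probes seen on every array, and every member probe lies above the line of equal SD.

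Little of the spread was shared by the messages of an array. The part of the within-breed variation common to the 17 probes of an array was 7.02% in the Ladakhi and 19.5% in the Sahiwal arrays. By this measure, probes that vary independently would give about 1 part in 17. The Ladakhi share was near that and the Sahiwal share above it, and neither was tested. The mean over the 17 probes deviated from its breed by -0.12, 0.09, -0.27, 0.02 and 0.28 on Ladakhi arrays 1 to 5, an SD of 0.210. Over the Sahiwal arrays the SD of that mean was 0.119. Ladakhi array 4 alone was the lowest of its breed at 6 of the 17 probes and the highest at 7.

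The overlapping pairs also differed in spread between the breeds. ND1-2 minus ND1-3 was -1.97, -2.36, -1.14, -4.31 and -0.85 on Ladakhi arrays, an SD of 1.37, and -1.23 to -0.80 on Sahiwal arrays, an SD of 0.138. CYTB-4 minus CYTB-5 was -0.11, -2.58, 0.08, 0.35 and 1.24, an SD of 1.43, and -0.41 to 0.04 on Sahiwal arrays, an SD of 0.143. These 2 pairs have identical letters where they overlap, over 44 of the 60 bases of a probe for ND1 but only 27 for CYTB.

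In the pairs whose letters differ, ATP6-1 minus ATP6-2 was 0.70, 0.54, 0.81, -2.28 and -0.75, an SD of 1.32, against 0.13 to 0.58 in the Sahiwal arrays, an SD of 0.189. COX3-1 minus COX3-2 was -0.38, -4.10, -0.88, 0.18 and -1.81, an SD of 1.68, against -1.10 to -0.76, an SD of 0.129. The probes of a pair have an offset of their own, on average -1.03 for ND1 and -0.98 for COX3 in the Sahiwal arrays. The pair with a gross departure was a different one on different arrays: array 4 for ND1 and ATP6, array 2 for COX3 and CYTB. Over 106 overlapping pairs of nuclear probes, the median SD was 0.649 in Ladakhi and 0.204 in Sahiwal arrays, and the Ladakhi SD was the larger in 96.2%.

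**Figure D4:**
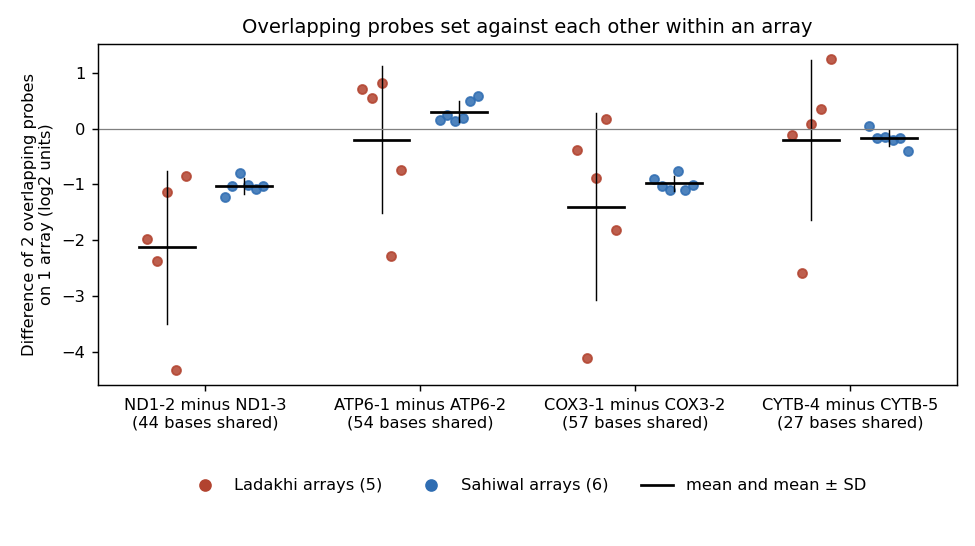
Difference of 2 overlapping probes on the same array (vertical axis, log2 units) for the 4 unsaturated pairs, with 1 point per array, Ladakhi in red and Sahiwal in blue, mean as a bar and mean ± SD as a vertical line. The Ladakhi points span 3.09 to 4.28 log2 units and the Sahiwal points 0.339 to 0.452.

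The differences were also taken by slide. Against each of the 2 Sahiwal slides alone, 20 of the 21 probes kept the sign of the difference, and COX2-2 did not. Ladakhi array 5, alone on its slide, agreed in sign with the other 4 Ladakhi arrays at 18 of the 21, and not at COX2-1, COX2-2 and ATP6-3.

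The array held 29 other probes on the mitochondrial chromosome. COX1, the catalytic subunit of complex IV, was named on 3 of them only through accession-style names or descriptions and was not a member. At chrM:6489-6549 its difference was 1.63 without overlap. At chrM:7166-7225 and chrM:7237-7296 the differences were -0.35 and 0.75, with 2 and 1 saturated Sahiwal arrays, and the breeds overlapped. At the second of these the outlier-marked spot of Ladakhi array 3 was left out, and with it the difference was 0.35. ND6, the complex I subunit encoded on the strand opposite to the others, was above background on all 6 Sahiwal and no Ladakhi arrays at chrM:13950-14009.

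In the region of the 2 ribosomal RNAs and on the strand of the member probes, 8 of 10 probes were measured. Their differences ran from -2.82 to 1.45 with a median of -0.29, against 1.41 for the member probes. Their Ladakhi SDs were 0.879 to 3.69 and their Sahiwal SDs 0.190 to 0.946. The widest was at chrM:2815-2875, with Ladakhi levels of 3.33, -5.26, -1.79, -3.02 and 2.59. The other 15 probes were listed from high to low coordinate, thus on the opposite strand, in the ribosomal RNA, ATP8 and ATP6, COX3 and D-loop regions. Of these 15, 13 were above background on no Ladakhi array, 4 on all 6 Sahiwal arrays and 2 on no Sahiwal array. In the pair of opposite-strand probes that overlapped by at least 20 bases, the 27 shared bases matched as reverse complements.

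Nuclear genes that make, process or join the mitochondrial products were read with the brightest probe of each gene. Among 27 measured nuclear subunits of complex I, 3 were higher in Ladakhi and 4 lower, with a median difference of -0.12. NDUFA7, an accessory subunit, rose by 1.95 ± 0.27 (SE), from -0.72 ± 0.27 (SD, n = 6) to 1.23 ± 0.38 (SD, n = 5), with a limma adjusted p of 0.000182. NDUFB10, an accessory subunit of the membrane arm, fell by 2.80 ± 0.59 (SE), with a limma adjusted p of 0.00241. It was not above background on every array, and with such readings raised to the array's detection level the difference was -2.67.

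Among 35 measured nuclear subunits of complexes III to V, 8 were above and 6 below their Sahiwal level past the threshold (median 0.13). NDUFA4, now counted with complex IV, was higher by 1.65 ± 0.29 (SE, limma adjusted p = 0.000792), and a second probe of it was higher by 1.21. COX6A1, a nuclear complex IV subunit, fell by 1.43 ± 0.30 (SE, limma adjusted p = 0.00238). Of the 2 measured subunits of complex II, which has none from the mitochondrion, SDHC fell by 1.89 ± 0.34 (SE, limma adjusted p = 0.000837) and the other did not pass. SDHC was not above background on every array, and with such readings raised to the array's detection level its difference was -1.79. Against 17.9% higher and 15.1% lower over all measured probes, the shares in complexes I and III to V were not far from the background.

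The genes of mitochondrial transcription and replication were mostly too dim in the Ladakhi arrays to compare. Only 1 of the 16 with a probe was measured, SSBP1, the single-strand binding protein, at 0.15 and not past the threshold, and 11 were above background on no Ladakhi array. Of 23 genes of mitochondrial RNA processing, polyadenylation and decay, 5 were measured, and HSD17B10, a subunit of the mitochondrial RNase P, fell by 1.21 ± 0.42 (SE, limma adjusted p = 0.0365) with 2 Sahiwal spots marked as outliers and left out. It missed the threshold in 9 of 23 alternatives. Of the 5, only HSD17B10 was past the threshold, where 15.1% of all measured probes were lower. SLIRP, which with LRPPRC stabilises these messages, differed by 0.03 and did not pass.

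Of 16 translation factors 2 were measured, and OXA1L, which inserts the new proteins into the inner membrane, was higher by 0.70 ± 0.26 (SE, limma adjusted p = 0.0462). It missed the threshold in 14 of 24 alternatives. Among 31 of 77 mitochondrial ribosomal proteins 1 was higher, MRPS2 by 1.67 ± 0.28 (SE, limma adjusted p = 0.000639). The Sahiwal mean of MRPS2, -4.50, was below the average Ladakhi detection level of -3.67. A Ladakhi level as low would therefore not have been measured. Of the 31, 4 were lower, of which MRPS15 fell most, by 1.60 ± 0.41 (SE, limma adjusted p = 0.00699). MRPS15 was not above background on every array, and with such readings raised to the array's detection level its difference was -1.54. It missed the threshold in 2 of 23 alternatives. The median over the 31 was -0.12, and 17.9% of all measured probes were higher and 15.1% lower. Of 11 measured assembly factors 1 was higher, where 17.9% of all measured probes were. It was CMC2, which serves complex IV assembly, higher by 1.04 ± 0.28 (SE, limma adjusted p = 0.00921).

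Genes that gauge mitochondrial mass were read in the same way. Of 18 measured outer membrane, import, chaperone and matrix genes none was higher and 3 were lower, with a median of -0.26, where 17.9% and 15.1% of all measured probes were. HSPA9, the matrix chaperone, fell by 0.90 ± 0.30 (SE, limma adjusted p = 0.0276). TOMM6, of the import pore, fell by 0.81 ± 0.30 (SE, limma adjusted p = 0.0438), but its other measured probe stood at 0.51 in the opposite direction. The TOMM6 spots on Sahiwal arrays 1 and 5 were marked as outliers and left out. Both genes missed the threshold in some alternatives, 7 for HSPA9 and 11 for TOMM6. Of the biogenesis regulators only YY1 was measured, at 0.34 and not past the threshold.

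**Figure D5:**
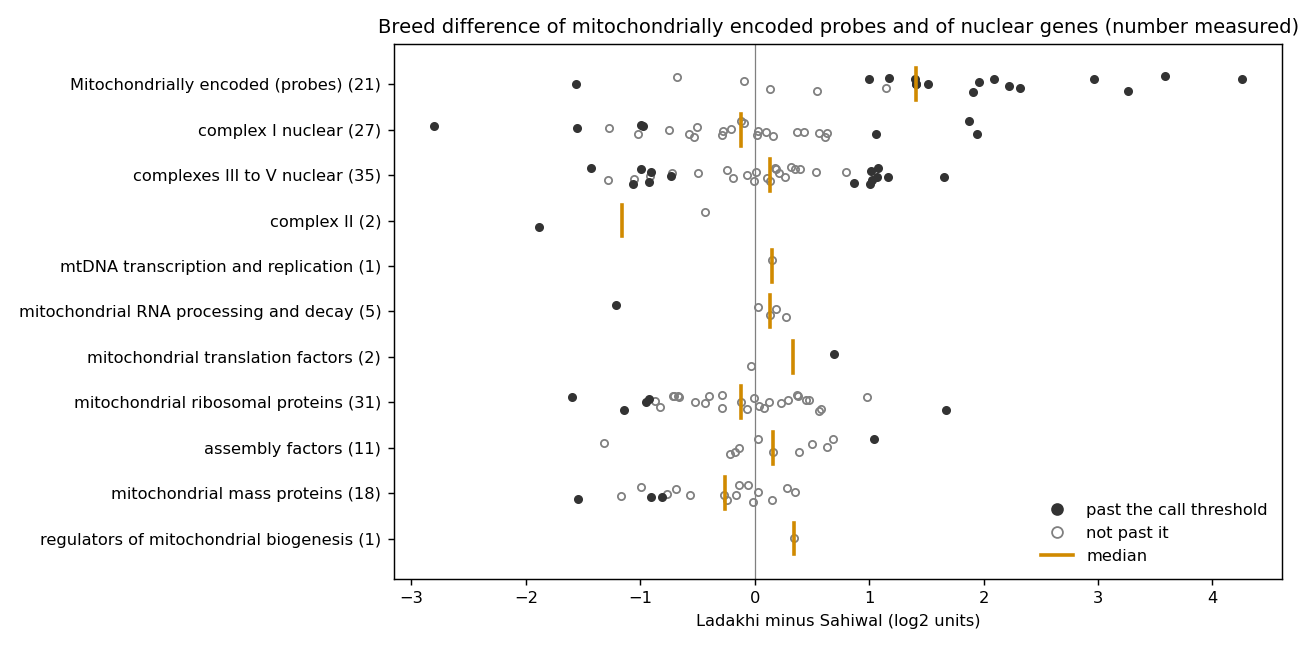
Ladakhi minus Sahiwal difference (horizontal axis, log2 units) of the 21 measured member probes in the top row and of the brightest probe of each measured nuclear gene below, by list, with the number measured in brackets. Filled points are past the limma threshold and orange bars are medians: 1.41 in the top row, and from -1.16 (complex II, 2 genes) to 0.34 in the others.

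The probes most like the member messages were sought by Pearson's r over the 11 arrays, after the breed mean was taken from each, between a probe and the mean of the 17 member probes. The highest of 2363 nuclear candidates were BBLN (r = 0.831), COPZ1, a coatomer subunit (0.824), SVBP, the small vasohibin-binding protein (0.798), CDC42SE2 (0.798) and a probe of NDUFA13, a complex I subunit (0.786). Their breed differences were -0.81, -0.08, -0.04, -0.02 and 0.30, unlike the 1.41 of the member probes. The brightest probe of NDUFA13, read in the complex I list, went the other way, at -0.99 (limma adjusted p = 0.0309). All points share the 11 libraries, and the r values are a description.

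Markers of several blood cell types were looked for in both breeds. At least 4 Ladakhi arrays showed 2 of 6 T cell markers (CD3D, CD2) and 2 of 6 monocyte markers (CSF1R, LYZ), against 6 and 5 in the Sahiwal arrays. Over all spots, 9.69% to 15.1% were above background on Ladakhi arrays and 40.0% to 47.0% on Sahiwal arrays. The marker counts are therefore not read as numbers of cells. Of the platelet markers, PF4 was seen on at least 4 Ladakhi arrays, 1 of 4, and ITGB3 on no array. The platelet sum of linear scaled signals was 1.88 to 2.54 in Ladakhi and 0.269 to 4.80 in Sahiwal arrays.

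The sums did not overlap for monocyte markers, 0.960 to 2.470 in Ladakhi and 2.472 to 6.47 in Sahiwal arrays, with CD68 and CD163 on no Ladakhi array. The nearest arrays of the breeds were almost equal there. The sums for the cytotoxic cell markers did not overlap either, at 0.871 to 2.18 and 0.216 to 0.768, with KLRD1 and NCR1 on no Ladakhi array. Of all single measured probes, 11.8% had every Ladakhi value above the Sahiwal ones and 9.77% had every one below. Neutrophil sums were 0.491 to 1.60 and 1.49 to 12.3, and red cell sums 0.371 to 0.627 and 0.0878 to 1.73. The part of these cells in the differences of the mitochondrial messages was not tested.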

How the data were processed

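Scanner files of 11 one-colour arrays were read. Their processed signal is an intensity that, per the file headers, Agilent Feature Extraction (12.0.1.1 for Ladakhi, 9.5.3.1 for Sahiwal) had background-subtracted. The authors' deposited value table holds log2 values. Its breed differences equalled those of the scanner files, but its columns matched other arrays of the same breed, so it served as an alternative only.

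Control spots were dropped, 294 outlier-marked spots set missing and repeated spots of a probe averaged. log2 signals were scaled to each array's 75th percentile over 2578 probes above background on all 11 arrays. A probe was tested with limma 3.58.1 (R 4.3.3) where at least 4 arrays of 1 breed showed it above background (17865 probes). Gene names came from accessions (28512 probes) or symbols (5672) in a RefSeq gene table for ARS-UCD2.0; the other 9469 kept the file's name. The number of arrays limits the precision. Nothing states that samples were separate animals beyond their numbering, so p-values measure the spread between these samples.

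The members, gene lists and rules were chosen with earlier results of these data known. Every member probe is named. So are the 2 measured, unsaturated genes per list with the largest called change, and the 5 most alike probes. Genes of small counts (SSBP1, SLIRP, YY1) and the rRNA probe given in full were chosen after their values were seen. Nuclear overlap pairs shared at least 20 bases. The normexp alternative used the median spot signal. The limma script was tested on simulated data. The result of 1 marker list is not reported here.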

Additional observations from a re-analysis of the deposited data

Results flagged for a closer look

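In each breed the highest and lowest array of every named probe or gene was set against the others, and 13 of 137 such groups held an array far from the rest. Far was judged by the gap to the nearest array over the range of the group. Chance alone would give about 1 in 20 for independent values. The groups share the same arrays and some probes overlap, so no excess over chance is read from the count. The values are scaled log2 signals, and no cause was tested.

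Of the member probes, ND1-1 read -2.88 on Sahiwal array 1, where the nearest other Sahiwal array read -2.56. ND5 read -3.35 on Sahiwal array 4, next to -2.93. COX3-1 read -0.37 on Ladakhi array 2, next to 1.18, while the probe that starts 3 bases later read highest on that array.

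Of the COX1 probes, the one at chrM:6489-6549 read -0.89 on Sahiwal array 1 and the one at chrM:7237-7296 read 3.34 on Sahiwal array 3. Of the ribosomal RNA region probes, the one at chrM:962-1021 read -1.05 on Ladakhi array 5, that at chrM:2656-2713 read -2.17 on Ladakhi array 4 and that at chrM:2964-3023 read -5.26 on Ladakhi array 2, not above background. Of the opposite-strand probes, that at chrM:1698-1758 read -5.95 on Sahiwal array 2, and that at chrM:9427-9485 read -2.29 on Ladakhi array 1, the only Ladakhi array on which it was above background.

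Of the nuclear genes, COX6A1 read -1.25 on Ladakhi array 2, TOMM6 -0.13 on Sahiwal array 2 and BBLN -2.67 on Ladakhi array 3.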

How the results depend on the processing

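Over the 24 alternatives, 13 of the 16 called member probes stayed past the threshold in every alternative that tested them. Of the 21 measured ones, 19 kept their sign in every alternative that tested them. ND2-1, among the 13, was tested in 23. The members were picked on differences in these same arrays, so these counts only describe the settings. COX2-2 and COX3-1 each changed sign once, uncalled. Quantile normalization, cyclic loess and normexp shifted the median of all measured probes by 0.21, 0.44 and 0.28 log2 units and missing saturated spots by -0.19, and values are relative to those shifts. The member median, 1.41, ran from 1.26 (normexp) to 1.71 (without Ladakhi array 4), and leaving out 1 array gave 1.4 to 1.71, with 14 to 16 member calls, 14 to 15 higher and 0 to 2 lower. Under cyclic loess 0 members were lower, in place of 1. The median Sahiwal SD, 0.267, was 0.400 with the percentile over all probes and 0.235 to 0.292 with 1 array left out. The Ladakhi one, 0.882, ran from 0.641 to 0.994.

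Over all tested probes 7520 were called, 4330 higher and 3190 lower. Cyclic loess gave 3743 (1898 and 1845), normexp 13429 (12281 and 1148), no filter 34529 (30739 higher), only probes above background on all arrays 1070 (688 and 382) and a signal floor 12056 (10405 and 1651). Quantile normalization gave 1509 higher and 6433 lower. Leaving out 1 array gave 6491 to 7494 (3536 to 4577 and 2768 to 3109).

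Of the list counts, nuclear complex I (7 called) gave 12 with slide as a random block and 5 to 9 with 1 array left out. Complexes III to V (14) gave 17 under normexp and with the slide block, and 12 to 15 with 1 array left out. Complex II (1) gave 2 under normexp and 0 with only probes above background on all arrays. RNA processing (1) gave 0 under quantile normalization, cyclic loess and the all-array filter, 2 under normexp, and 0 to 1 with 1 array left out. Translation factors (1) gave 0 with the percentile over all probes, saturated spots missing or the authors' table, and 0 to 1 with 1 array left out. Ribosomal proteins (5) gave 8 under quantile normalization, no filter, the floor and the slide block, 11 under normexp, 3 under the all-array filter and 3 to 7 with 1 array left out. Assembly factors (1) gave 4 under quantile normalization and cyclic loess, 6 under normexp, 2 under the floor and slide block, and 1 to 2 with 1 array left out. Mass proteins (3) gave 1 under quantile normalization, 0 under cyclic loess, 6 under normexp and 1 to 3 with 1 array left out. The cause of these changes was not tested.

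The replicate numbers do not pair animals: same-numbered arrays correlated at -0.07 to 0.05. With a replicate block, which leaves out Sahiwal array 6, 15 member probes were called with a median of 1.42. Under this block the counts were 9 for complexes III to V, 0 for RNA processing, 0 for translation factors, 2 for ribosomal proteins and 1 for mass proteins. Every Ladakhi array correlated best with another number. The dimmest Ladakhi spots above background lay at -4.34 to -2.94 by array, and saturation bounds the brightest Sahiwal spots.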
